A study of Mus musculus with 50 samples.

Results

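The comparison described here is that of wild-type (WT) mouse mammary epithelium at 8 weeks of age with the same epithelium at 6 weeks, in terminal end buds (TEBs) and in ducts. Its members were all arrays titled WT TEB or WT Duct at these ages, which are 10 of the 50 arrays of the series: 6 arrays at 6 weeks (3 TEB and 3 duct) and 4 at 8 weeks (2 TEB and 2 duct). The mice were of CB6F1 background, the WT mice carried no transgene, and the labels place 6 weeks at mid puberty and 8 weeks at late puberty. Littermates were used within each age, so an effect of age cannot be told apart from one of litter. A TEB array and a duct array that share an age and a replicate number were taken as 1 mouse (3 mice at 6 weeks and 2 at 8 weeks), although no source used here says so outright. Structures were cut by laser from frozen, stained sections in a way meant to take epithelium and leave stroma and fat, and RNA was hybridized to Affymetrix Mouse Gene 1.0 ST arrays. A further 10 arrays from K14-DN-Clim littermates, in which a keratin 14 promoter drives a dominant-negative Clim (a transcriptional cofactor) on the same background, covered the same ages (2 TEB and 2 duct at 6 weeks, 3 TEB and 3 duct at 8 weeks) and are used below for comparison. One 8-week array, WT Duct replicate 2, is a duct by its title and its tissue label but a TEB by its description. It was treated as a duct.

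During puberty the mammary ducts lengthen behind TEBs, bulbous tips in which an outer layer of cap cells and inner body cells divide. The tree consists of an inner luminal layer, part of which senses estrogen and progesterone, and an outer basal or myoepithelial layer, and it lies in fat, fibroblasts, blood vessels and resident macrophages. Growth slows once the ducts approach the edge of the fat pad, and TEBs then disappear.

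The unit of all values was the intensity deposited for each probe set, and differences are given on the log2 scale, 8 weeks minus 6 weeks, from a model with structure as a covariate and the mouse as a random block. An intensity of 200 was the level under which the study regarded a gene as not expressed on the laser capture arrays. For sorted cells it used a lower level. The library labelled WT TEB at 6 weeks, replicate 1, stood apart: its median intensity was 156, against 186 to 221 on the other 5 arrays of 6 weeks and 213.6 to 221.4 on the 4 of 8 weeks, and 9.53% of its probe sets were under an intensity of 1, against 0.160% to 1.85% on the other 9. Its median correlation with the other laser capture arrays was 0.774. The tests of age over both structures, the gene lists and the difference between genotypes were also computed without it. Of 13362 genes, 2682 (20.1%) passed an adjusted p of 0.05 with all 10 arrays, 1442 (10.8%) higher and 1240 (9.28%) lower at 8 weeks, and without that array 3324 (24.9%) passed. The same direction was called with and without it in 2500 genes. Among genes called and at least 2-fold apart, 255 were increases and 116 decreases, and without that array 244 and 166. The median difference over all genes was 0.048. List counts below are to be read against the shares of all genes called, 20.1% in either direction, 10.8% higher and 9.28% lower. The count of genes past the test rested on few mice: it was 1529 when TEB and duct of a mouse were averaged, 1008 and 734 without the first and the second mouse of 8 weeks, 791 without WT Duct 6 weeks replicate 1, and 1738 and 1416 without WT Duct 8 weeks replicates 1 and 2.

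The captured tissue carried the markers of both epithelial layers at both ages. Krt5, Krt14, Acta2 and Trp63, which mark basal cells, and Krt8, Krt18, Epcam and Cdh1, which mark luminal or all epithelial cells, had intensities from 582 to 10993 on the 10 arrays, and none of these 8 genes passed the test. Krt14, the keratin whose promoter drove the transgene in the DN-Clim mice, had 6-week values of 1365, 1592 and 1735 (lowest, median and highest of 6 arrays) and 8-week values of 1543 and 1393 in TEBs and 2039 and 2035 in ducts (log2 difference 0.13 ± 0.092 SE, adjusted p = 0.346). For Krt8 the 6-week values were 6559, 8694 and 9203 and the 8-week values 10235 and 6624 in TEBs and 10258 and 10993 in ducts (0.19 ± 0.13, adjusted p = 0.33). The ages overlapped for both keratins. Markers of fat, vessel, macrophage and fibroblast were present on all 10 arrays as well, among them Adipoq at 2990.1 to 6849, Pecam1 at 517 to 1516 and Col1a1 at 3144 to 4706, and their changes with age are given with their gene groups below. In bulk samples of this kind, fewer cells of a type and less RNA per cell cannot be told apart.

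Genes of cell division and DNA replication fell between 6 and 8 weeks. Of 39 genes measured, 20 were lower at 8 weeks and none was higher (0 of 39 against 10.8% of all genes, and 20 of 39 against 9.28%), with a median difference of -1.004. Without WT TEB 6 weeks replicate 1, 30 were lower. By structure, 14 were lower in ducts and 1 in TEBs, a contrast given below that did not pass for any of the genes. The summed intensity of the list ran from 9478 to 24197 on the 6-week arrays and from 7781 to 8935 on the 8-week arrays, where 23 of the 39 genes were under 200 on all 4 arrays. Mcm2, a subunit of the helicase that opens replication origins, had 6-week values of 341, 450.4 and 606 and 8-week values of 188 and 203 in TEBs and 208 and 205 in ducts (-1.20 ± 0.13, adjusted p = 0.00024). Each 8-week value lay below each 6-week value. Cdk1, the kinase that drives entry into mitosis, went from 263, 496 and 830.3 at 6 weeks to 193 and 166 in TEBs and 208 and 182 in ducts (-1.43 ± 0.25, adjusted p = 0.0033), again with no overlap. Mcm5, another subunit of the same helicase, had 6-week values of 275, 372 and 612 and fell to 188 and 141 in TEBs and 139.6 and 136 in ducts (-1.40 ± 0.25, adjusted p = 0.00349), under 200 on all 4 arrays. Top2a, the topoisomerase that untangles replicated chromosomes, fell from 239.5, 551 and 1047 to 179 and 187 in TEBs and 160.3 and 164 in ducts (-1.69 ± 0.33, adjusted p = 0.00558). Mki67, which encodes a protein of proliferating nuclei, ranged widely at 6 weeks (444, 1012 and 1609) and narrowly at 8 weeks (413 and 381 in TEBs and 359 and 401 in ducts), a difference of -1.29 ± 0.29 (adjusted p = 0.0117). The 6-week arrays themselves were uneven, and the count of genes past the test moved with single arrays: 4 were lower without WT Duct 6 weeks replicate 1, 11 and 8 without WT Duct 8 weeks replicates 1 and 2, 13 without WT TEB 8 weeks replicate 2, and 1 without the second mouse of 8 weeks, while the median stayed between -1.25 and -0.73 whichever array or mouse was left out.

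The promoters of Mcm2, Cdk1 and Mcm5, the members with the lowest adjusted p, are printed because many genes of DNA replication and mitosis carry CCAAT boxes, and some the TTTGAA core of a cell cycle homology region, close to their start. Each line holds the 250 bases before the start site on the gene's strand from RefSeq (GRCm38.p6), with matches of CCAAT or TTTGAA on either strand in capitals, so that ATTGG is a CCAAT on the other strand. The windows are chr6:88898781-88899030 on the minus strand for Mcm2, chr10:69352913-69353162 on the minus strand for Cdk1 and chr8:75109259-75109508 on the plus strand for Mcm5.
Mcm2: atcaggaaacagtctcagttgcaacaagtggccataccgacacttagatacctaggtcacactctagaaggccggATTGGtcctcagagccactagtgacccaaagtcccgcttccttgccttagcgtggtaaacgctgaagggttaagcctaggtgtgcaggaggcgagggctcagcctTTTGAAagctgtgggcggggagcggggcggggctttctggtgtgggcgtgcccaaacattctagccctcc
Cdk1: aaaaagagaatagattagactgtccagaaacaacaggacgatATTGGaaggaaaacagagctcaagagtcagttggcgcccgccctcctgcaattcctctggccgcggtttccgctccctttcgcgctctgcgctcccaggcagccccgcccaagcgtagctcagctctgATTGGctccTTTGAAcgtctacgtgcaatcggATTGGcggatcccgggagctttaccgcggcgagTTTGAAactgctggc
Mcm5: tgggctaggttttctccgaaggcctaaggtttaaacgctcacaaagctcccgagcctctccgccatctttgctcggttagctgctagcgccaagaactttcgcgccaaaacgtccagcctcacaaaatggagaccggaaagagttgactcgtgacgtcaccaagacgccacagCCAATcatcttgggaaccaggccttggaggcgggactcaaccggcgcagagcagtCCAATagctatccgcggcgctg
The Mcm2 window held 1 CCAAT and 1 TTTGAA, that of Cdk1 3 CCAAT and 2 TTTGAA, and that of Mcm5 2 CCAAT and no TTTGAA. The letters CCAAT occurred in 34.5% of all 27025 promoter windows and in 23 (76.7%) of the 30 windows matched to measured members of the list, and in 13 of the 14 windows of members that passed the test. The letters TTTGAA occurred in 16.3% of all windows, in 7 (23.3%) of these 30 and in 5 of these 14. A match is a description of the letters and was not tested as a binding site.

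Histone genes, whose messages are made during DNA replication, moved less evenly. Of 16 measured, 3 were lower and 2 higher (5 lower without WT TEB 6 weeks replicate 1 and 6 without WT Duct 6 weeks replicate 3). With all arrays 31.2% were called, against 20.1% of all genes. H1f5, a linker histone, fell from 6-week values of 721, 977 and 1574 to 334 and 262 in TEBs and 307 and 259.5 in ducts (-1.86 ± 0.18, adjusted p = 0.000117). H2ac15 and H2bc3 also fell (-0.77 and -0.79), whereas H2bc4 and H1f2 rose by 0.30 and 0.40, with ages that overlapped.

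Most ribosome biogenesis genes fell: 23 of 29 were lower at 8 weeks, none was higher and 6 did not pass, with a median of -0.48 and summed intensities of 21691 to 27185 at 6 weeks against 15922 to 19061 at 8 weeks. Nop58, a core protein of the particles that modify ribosomal RNA, had 6-week values of 661, 787 and 937 and 8-week values of 423 and 355 in TEBs and 497 and 474 in ducts (-0.86 ± 0.095, adjusted p = 0.00024). Its partner Nop56 went from 1315, 1642 and 1872 to 1061 and 843 in TEBs and 1038 and 988 in ducts (-0.73 ± 0.088, adjusted p = 0.000381). Neither gene's ages overlapped. Heatr1 and Nolc1, which act in the nucleolus, fell by 0.54 and 0.53. Myc, a transcription factor that promotes growth and ribosome production, had one of the narrower spreads: 6-week values of 1814, 2019 and 2125 and 8-week values of 934 and 782 in TEBs and 1005 and 997 in ducts, a difference of -1.10 ± 0.069 (adjusted p = 9.06e-06). The number of ribosome biogenesis genes past the test was 7 without WT Duct 6 weeks replicate 1, 15 without WT Duct 8 weeks replicate 2, and as low as 5 without 1 mouse.

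Over all 4 ages, given here as medians of each array's values relative to the mean of 6 and 8 weeks, the cell cycle list lay at 1.90 to 2.14 in 4-week TEBs, at 1.11 to 1.34 in 4-week ducts, at -0.37 to 0.58 in 6-week TEBs, at 0.13 to 1.27 in 6-week ducts and at -0.71 to -0.42 on the 8-week arrays. The 4- and 6-week values overlapped in ducts and not in TEBs. At 10 weeks it ranged from -1.31 to -0.06. The ribosome biogenesis list, lowest at 8 weeks, was at 0.07 to 0.25 on the 10-week arrays, above the 8-week arrays. The plot of list medians by age shows both lists beside 4 lists of non-epithelial cells. At 10 weeks the macrophage list was at -0.25 to -0.04 and the fibroblast and matrix list at -0.14 to -0.02, under every 8-week array. The Wnt list (-0.07 to 0.03) and the metalloproteinase list (-0.15 to 0.01), described below, were also under every 8-week array. The endothelial (0.15 to 0.84) and adipocyte (0.25 to 0.79) lists stayed above every 6-week array.

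**Figure D1:**
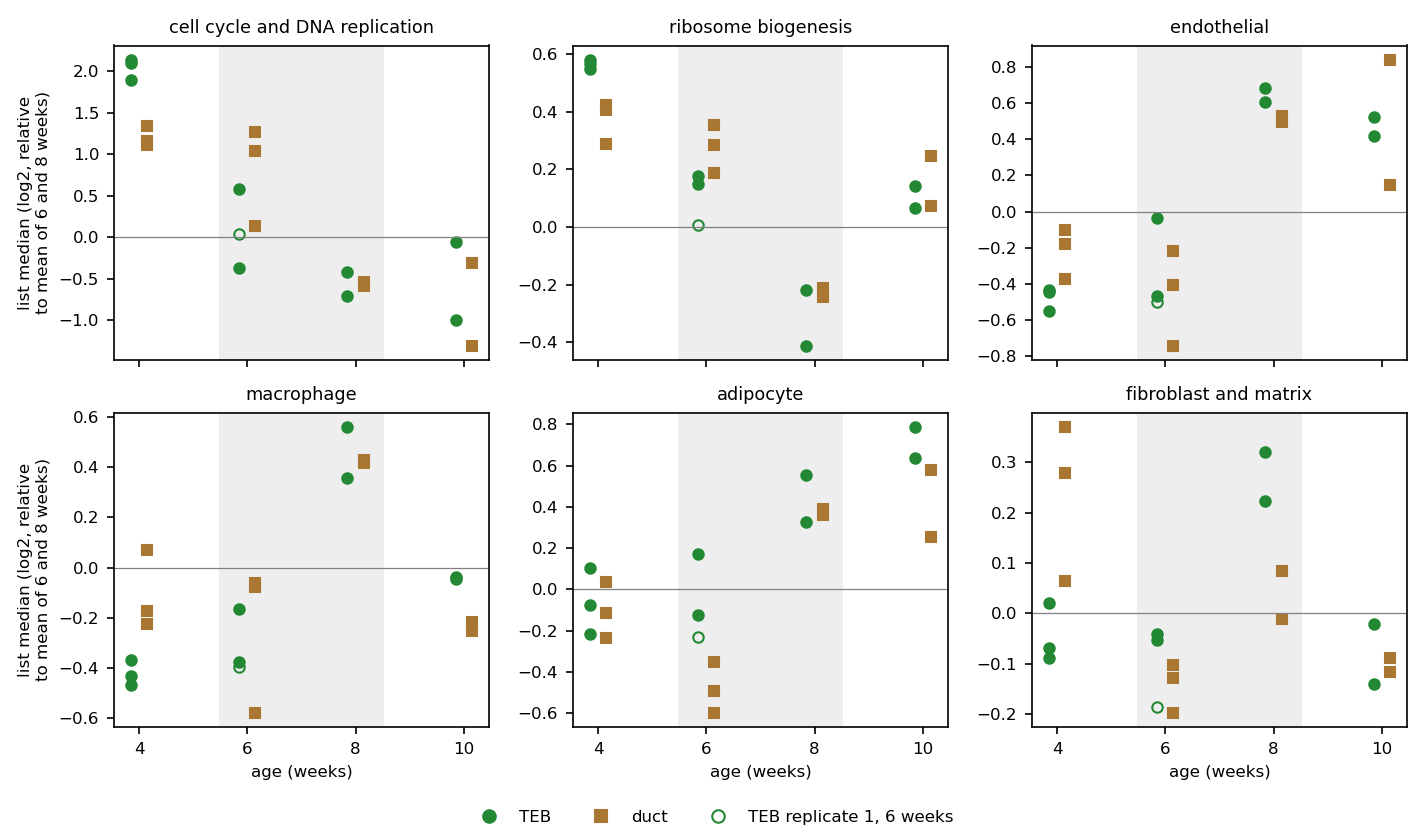
Median of each gene list on each WT array (y axis, log2 intensity relative to the mean of the 6- and 8-week arrays) against age in weeks (x axis); circles are TEBs, squares are ducts, the open circle is TEB replicate 1 of 6 weeks, and the shaded ages are those compared. The cell cycle list lay between -0.71 and -0.42 at 8 weeks, and the endothelial, macrophage and adipocyte lists were higher on every array of 8 weeks than on any of 6 weeks.

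Genes of blood vessels rose almost as a whole list. Of 17 endothelial genes, 16 were higher at 8 weeks (94.1%, against 10.8% of all genes) and none lower, with a median of 0.95 and summed intensities of 7539 to 11379 at 6 weeks against 16512 to 18994 at 8 weeks. Tek, the angiopoietin receptor, had 6-week values of 286, 359.6 and 381 and 8-week values of 824 and 878 in TEBs and 702 and 679 in ducts (1.14 ± 0.095, adjusted p = 4.19e-05). Pecam1, an adhesion protein of endothelial junctions, rose from 517, 642 and 762 to 1348 and 1516 in TEBs and 1266 and 1313 in ducts (1.08 ± 0.10, adjusted p = 9.20e-05). The tight junction gene Cldn5 and the water channel gene Aqp1 rose by 1.56 and 1.44. None of these genes overlapped between the ages. Leaving out any 1 array or mouse left 9 to 17 of the 17 genes past the test.

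Macrophage genes rose with them. Of 14, 11 were higher and none lower (median 0.74), with sums of 6367 to 8364 at 6 weeks and of 12410 to 14609 at 8 weeks. Csf1r, the receptor for the growth factor that macrophages need, had 6-week values of 492, 634 and 707 and 8-week values of 1218 and 1161 in TEBs and 1082 and 1178 in ducts (0.93 ± 0.11, adjusted p = 0.000315). Lyz2, the lysozyme of myeloid cells, rose from 1141, 1331 and 1442 to 4105 and 3062 in TEBs and 3760.5 and 3693 in ducts (1.48 ± 0.10, adjusted p = 1.44e-05). Cd68 and C1qc rose by 0.89 and 0.69. In the list of antigen presentation and dendritic cell genes 7 of 12 were higher and 1 lower: the class II genes H2-Aa (1.00), H2-Eb1 (0.85) and Cd74 (1.09), which present peptides to T cells, rose, and Tap1, which feeds peptides to class I molecules, fell (-0.46). Without WT Duct 6 weeks replicate 1, 6 of the 14 macrophage genes passed.

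Few genes of lymphocytes passed (8.33% of the T, B and plasma cell list, against 20.1% of all genes). Ptprc (CD45), carried by all leukocytes, was the one gene of 12 on the T, B and plasma cell list to pass, with 6-week values of 300.1, 393 and 441 and 8-week values of 683 and 796 in TEBs and 566 and 594 in ducts (0.76 ± 0.14, adjusted p = 0.0044). Of the 12, 7 were under 200 on all 6-week arrays and 5 on all 8-week arrays. Cd3e, part of the T cell receptor complex, was at 82.8, 183 and 207 at 6 weeks and 275 and 241 in TEBs and 217 and 241 in ducts at 8 weeks, which did not pass (adjusted p = 0.12). Among 6 mast cell and granulocyte genes the protease genes Tpsb2 (1.44) and Cpa3 (1.82) rose, and between 0 and 3 of the 6 passed when 1 array or mouse was left out. Alas2, which makes heme in red cell precursors, was under 200 on all 6-week arrays (74.5, 130.1 and 176) and above it on all 8-week arrays (369 and 363 in TEBs and 323 and 349 in ducts), a difference of 1.50 ± 0.23 (adjusted p = 0.0015).

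Fat cell genes rose in the same arrays. Of 15 adipocyte genes 12 were higher and none lower (median 0.67), and the list summed to 36030 to 56941 at 6 weeks and 66609 to 76590 at 8 weeks. Lep, the hormone leptin, had 6-week values of 518, 781 and 1232 and 8-week values of 5052 and 4587 in TEBs and 4432 and 5262 in ducts (2.62 ± 0.18, adjusted p = 1.90e-05), which was 6.13-fold. Lpl, the lipase that frees fatty acids from circulating lipids, rose from 3421, 4013 and 4503 to 7766 and 7703 in TEBs and 7632 and 7883 in ducts (0.97 ± 0.073, adjusted p = 2.41e-05). Plin4 and Fabp4, which coat lipid droplets and carry fatty acids, rose by 0.84 and 0.68. Of 23 genes of lipid and cholesterol synthesis, which both epithelium and fat use, 10 were higher and 1 lower (median 0.32). Scd2 and Scd1, desaturases of fatty acids, rose by 0.84 and 0.54, Hmgcs1 of the cholesterol pathway rose by 0.34, and Gpat4, an enzyme of glycerolipid synthesis, fell by 0.40. Without WT Duct 6 weeks replicate 1, 7 adipocyte genes and 1 lipid synthesis gene were higher. The lipid synthesis count was 3 without either duct array of 8 weeks and 6 without WT TEB 8 weeks replicate 1.

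Fibroblast and matrix genes rose by smaller amounts. Of 19, 10 were higher and none lower, with a median of 0.20 and sums of 50671 to 57448 at 6 weeks against 67938 to 73962 at 8 weeks. Dpt, a matrix protein of skin and connective tissue, had 6-week values of 2079.7, 2446 and 2529 and 8-week values of 6167 and 4661 in TEBs and 5477 and 5878 in ducts (1.20 ± 0.093, adjusted p = 2.72e-05). Dcn, the proteoglycan decorin, rose from 6329.8, 6884 and 7656 to 11220.1 and 9909 in TEBs and 11409 and 12043 in ducts (0.69 ± 0.084, adjusted p = 0.00042). Among collagen genes Col3a1 rose by 0.22, and Col1a1 did not pass (0.099, adjusted p = 0.487). Without WT Duct 6 weeks replicate 1, 5 of the 19 genes were higher. Of 16 basement membrane genes 4 were higher and 2 lower: the nidogen genes Nid2 (1.30) and Nid1 (0.65), the laminin gene Lama4 (0.58) and Hspg2 (0.47) rose, and Lama1 (-0.97) and Agrn (-0.32) fell. Nid2 had 6-week values of 269, 308 and 367 and 8-week values of 747 and 999 in TEBs and 662 and 704 in ducts (adjusted p = 2.09e-05). Lama1 went the other way, from 577, 659.5 and 805 to 367 and 406 in TEBs and 296 and 334 in ducts (adjusted p = 0.000746).

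Genes of nerve and muscle were measured for what else a section can hold. Pmp22 (0.91), S100b (0.79) and Mbp (0.42), which glia and other cells express, rose, and the glial factor Sox10, which mammary epithelium also expresses, did not pass (-0.16 ± 0.13, adjusted p = 0.42). Of 10 skeletal muscle genes 8 were under 200 on all 6-week arrays and 5 on all 8-week arrays. Acta1 (0.63) and Myl1 (1.71) rose, which was 20% of the list, near the 20.1% of all genes called. Of 12 genes of epidermal differentiation only Evpl rose (0.51), which was 8.33% of the list, against 20.1% of all genes called. The part of fat, vessel, macrophage, fibroblast, nerve and muscle content in the other results was not tested.

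**Figure D2:**
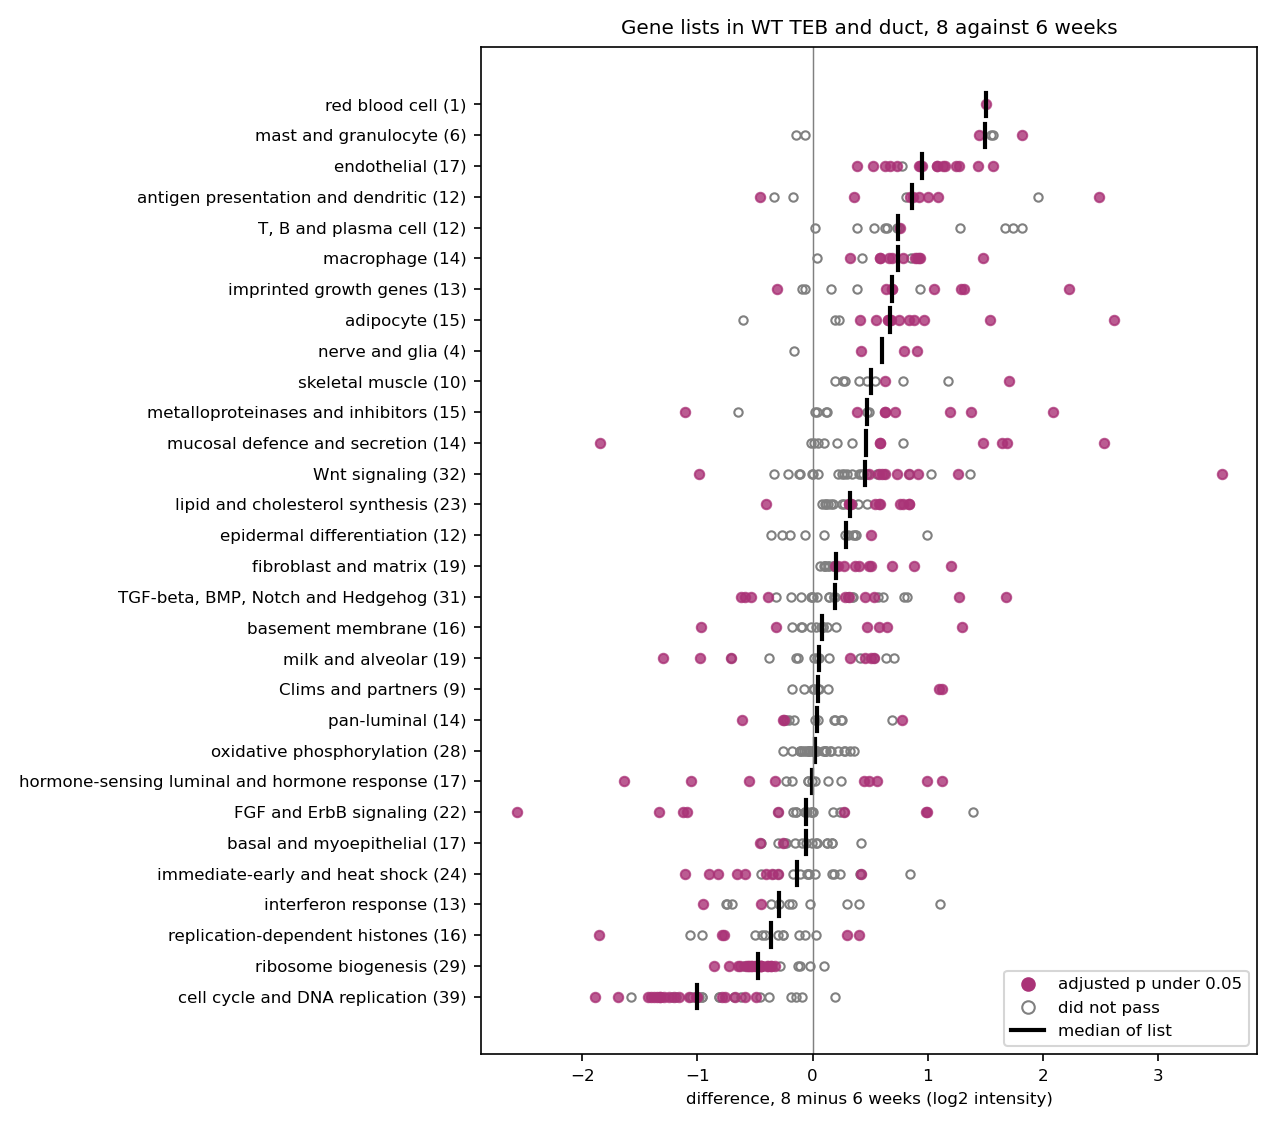
Difference of each measured gene of 30 lists (x axis, 8 minus 6 weeks, log2 intensity; filled points passed an adjusted p of 0.05, open points did not, bars are list medians, and the number of genes measured stands in parentheses). Medians ran from -1.004 for the cell cycle list to 0.95 for the endothelial list among lists of more than 6 genes.

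The 15 largest fitted increases ran from 5.76-fold to 21.6-fold and the 15 largest decreases from 4.09-fold to 18.6-fold. Both upper ends came from genes under the expression limit in 1 age (Rnase2a at 6 weeks and Serpinb11 at 8 weeks), where a ratio of intensities is neither a measured fold nor a bound. With values under 200 set to 200 the increases were 1.57-fold (Atp6v0d2) to 9.2-fold (Npr3) and the decreases 1.23-fold (Dscam, not past the test) to 7.34-fold (Cdcp3). By the rule used to name genes (past the test with and without WT TEB 6 weeks replicate 1, no overlap between ages), 2043 genes qualified, 1165 higher and 878 lower, and the 15 largest in each direction are described. Without regard to the test, 2959 genes (22.1%) did not overlap between ages, 1908 (14.3%) higher and 1051 (7.87%) lower at 8 weeks. Npr3, the receptor that clears natriuretic peptides, had 6-week values of 456, 619.5 and 802 and 8-week values of 5489.9 and 5368 in TEBs and 5141 and 5577 in ducts (3.20 ± 0.15, adjusted p = 1.18e-06), a 9.2-fold difference. Tmem45b, a transmembrane protein gene, rose from 277, 472 and 677 to 3947 and 3168 in TEBs and 3697 and 3416 in ducts (2.93 ± 0.18, adjusted p = 9.06e-06). Inmt, a methyltransferase of small amines, rose from 114, 291 and 366 to 2639 and 1789 in TEBs and 2414 and 2691 in ducts (3.21 ± 0.24, adjusted p = 2.50e-05). Sncg, gamma-synuclein, rose from 562, 736 and 787 to 4948 and 2826 in TEBs and 4267 and 4912 in ducts (2.55 ± 0.15, adjusted p = 7.42e-06). All 4 of these genes were above 200 on every 8-week array, and Npr3, Tmem45b and Sncg on every 6-week array too.

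Pwwp3b, named for its PWWP domain, went from 39.5, 162 and 363 at 6 weeks to 2002 and 1631 in TEBs and 2534 and 2323 in ducts at 8 weeks (3.87 ± 0.52, adjusted p = 0.000667). With values under 200 set to 200 its fold was 8.59 rather than 14.6. Scg3, a protein of secretory granules, rose from 73.6, 143 and 234 to 1004 and 732 in TEBs and 1069 and 956 in ducts (2.73 ± 0.34, adjusted p = 0.00042), and Muc16, a membrane mucin, from 55.9, 113 and 292 to 542 and 502 in TEBs and 694 and 942 in ducts (2.53 ± 0.40, adjusted p = 0.00187). These 3 genes were near or under the expression limit at 6 weeks.

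Values under 200 on all 6-week arrays were found for 6 of the 15 increases: Rnase2a, Sfrp4, Itgbl1, Atp6v0d2, Gabra3 and Cytl1. Rnase2a, of a ribonuclease family found in eosinophils and macrophages, had the largest fitted difference (4.43 ± 1.00, adjusted p = 0.0115), from 3.4, 49 and 100.1 at 6 weeks to 775 and 438 in TEBs and 668 and 581 in ducts at 8 weeks, and without WT TEB 6 weeks replicate 1 it was 3.75. Sfrp4, a secreted Wnt antagonist, had 6-week values of 1, 93 and 147 and 8-week values of 495 and 315 in TEBs and 652 and 671 in ducts (3.55 ± 1.13, adjusted p = 0.0496). Without the array its difference was 2.54 (adjusted p = 7.57e-05). The same array lowered the 6-week mean of Itgbl1 (3.38 with it and 2.57 without), of Atp6v0d2, a subunit of the vacuolar proton pump (3.11 and 2.31), and of the chemokine gene Ccl8 (2.55 and 1.87). It held the lowest 6-week value of 11 of the 15 genes. Sfrp4, Atp6v0d2, Ccl8 and Itgbl1 each lost the call when any of several single arrays was left out, WT Duct 6 weeks replicate 1 among them, and Rnase2a and Gabra3 when either mouse of 8 weeks was. With values under 200 set to 200 the fold of Rnase2a was 3.01, that of Sfrp4 2.55, that of Itgbl1 3 and that of Atp6v0d2 1.57. Gabra3, a GABA receptor subunit, and Cytl1, a secreted cytokine-like protein, rose by 2.69 and 2.57.

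**Figure D3:**
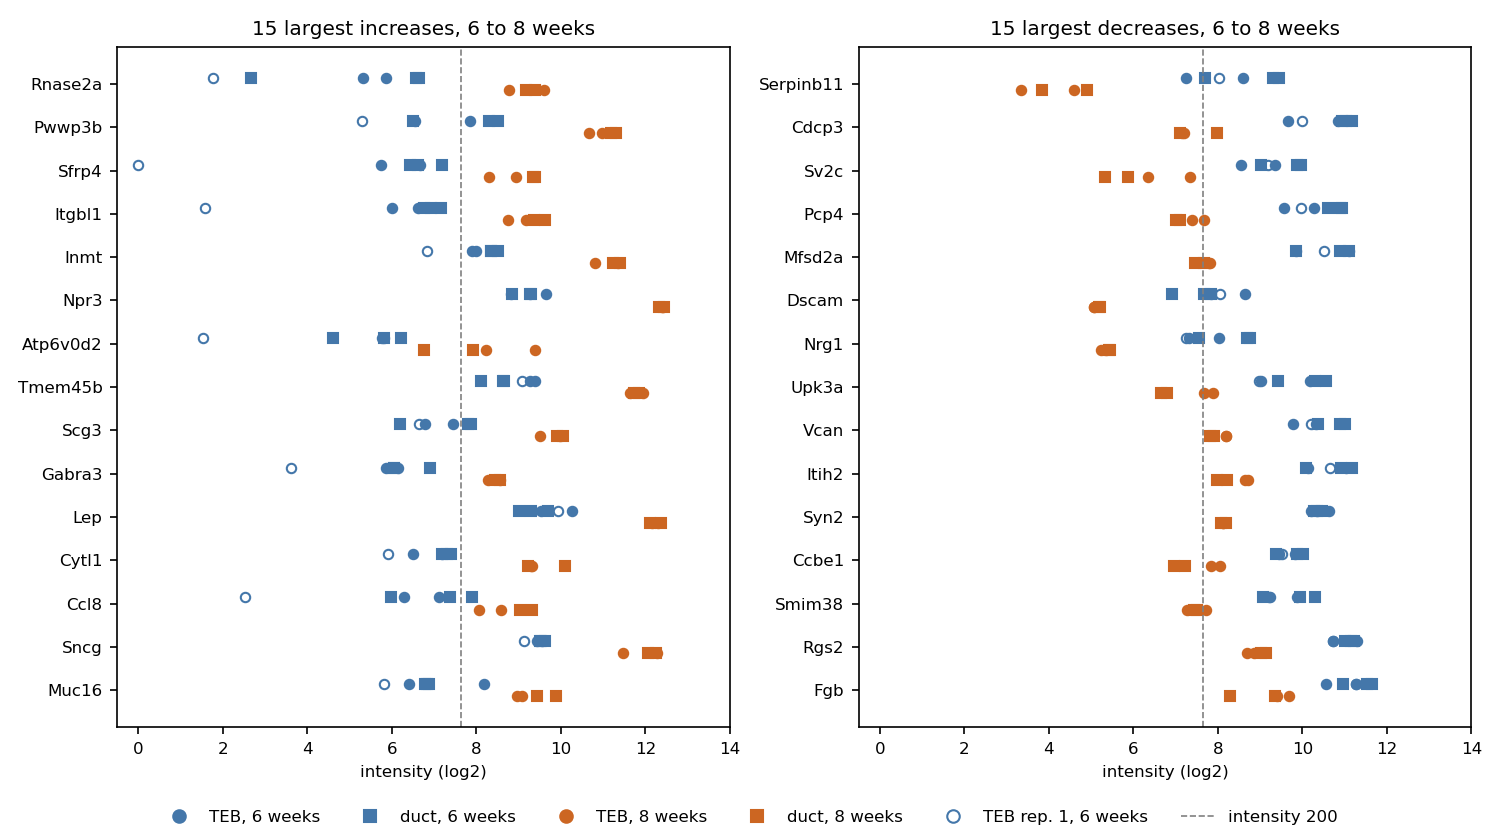
Log2 intensity (x axis) on each of the 10 arrays for the 15 largest increases (left) and 15 largest decreases (right); blue is 6 weeks, orange 8 weeks, circles are TEBs, squares are ducts, the open circle is TEB replicate 1 of 6 weeks and the dashed line is an intensity of 200. The ages do not overlap for any of the 30 genes, as the naming rule required, and the open circle was the lowest 6-week value for 11 of the 15 increases.

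Of the 15 largest decreases none was under 200 on all 6-week arrays, but Serpinb11, Dscam and Nrg1 were under it on 1, 1 and 3 of the 6. Serpinb11, a member of the serpin family, fell from 6-week values of 151, 325 and 701 to 24.3 and 10.1 in TEBs and 14.3 and 29.7 in ducts (-4.22 ± 0.49, adjusted p = 0.000297), and was under 200 on all 8-week arrays, as were Sv2c, Dscam and Nrg1. With values under 200 set to 200, Serpinb11, Dscam and Nrg1 no longer passed (adjusted p = 0.168, 0.241 and 0.264), so that the place of Serpinb11 as the largest fitted decrease rested on values under the expression limit. Cdcp3 fell from 806, 1898 and 2302 to 147 and 143 in TEBs and 138 and 252 in ducts (-3.24 ± 0.25, adjusted p = 2.50e-05). Pcp4, which binds calmodulin, fell from 761, 1394 and 1948 to 168 and 204 in TEBs and 128 and 138 in ducts (-3.08 ± 0.26, adjusted p = 5.19e-05). For each of these 3 genes the highest 8-week value was under the lowest of 6 weeks, as the naming rule required.

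Mfsd2a, a transporter of lysophospholipids, fell from 922, 1669.8 and 2218 to 221 and 225 in TEBs and 204 and 176 in ducts (-2.87 ± 0.27, adjusted p = 9.99e-05). Syn2, a synapsin gene, had the smallest standard error of the 15, with 6-week values of 1186, 1307 and 1591 and 8-week values of 279 and 278 in TEBs and 293 and 272 in ducts (-2.25 ± 0.089, adjusted p = 7.31e-07). Rgs2, which shortens signals of G proteins, fell from 1699, 2172 and 2519 to 462 and 414 in TEBs and 517 and 560.3 in ducts (-2.10 ± 0.12, adjusted p = 4.55e-06). Genes of secreted or matrix proteins were among the decreases too: Vcan, the proteoglycan versican (-2.41), Itih2, a heavy chain that is joined to hyaluronan (-2.27), Ccbe1 (-2.15) and Fgb, the fibrinogen beta chain (-2.03). Vcan had 6-week values of 874, 1304 and 2075 and 8-week values of 292 and 294 in TEBs and 240.4 and 223 in ducts (adjusted p = 7.49e-05). The synaptic vesicle gene Sv2c (-3.11), the adhesion gene Dscam (-2.70), the uroplakin gene Upk3a (-2.49) and Smim38 (-2.13) completed the 15 together with Nrg1, given below. At 10 weeks the mean was nearer the 8-week than the 6-week mean in 9 of the 15 decreases and in 11 of the 15 increases.

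Arrays of sorted WT basal and luminal cells, 2 each, taken at 10 weeks after cells carrying CD31, CD45 or TER119 were removed, give the level of the named genes in sorted epithelium. The titles of the luminal arrays name the CD29hi gate, that of basal cells, while their descriptions name CD29lo, and they were taken as luminal as titled. They were a different preparation with a lower median intensity (119 to 125), so levels are only set side by side. Of the 15 largest increases 12 were under 200 on all 4 sorted arrays, against 20.6% of all genes tested, and of the 15 largest decreases none was. The exceptions among the increases were Sncg (basal 1696 to 1713), Pwwp3b (luminal 172 to 1044) and Muc16 (luminal 78.7 to 214). The study's limit for sorted cells was lower than 200, and Cytl1 exceeded it on the higher of its basal arrays (105 to 152). Npr3 was at 106 to 111 in basal and 80.9 to 85 in luminal cells, and Lep at 58 to 78.1 and 44.7 to 53.1. Among all genes called, 29.1% of the 1442 higher and 3.95% of the 1240 lower ones were under 200 on all 4 sorted arrays, and among those at least 2-fold apart 63.1% of 255 and 19.8% of 116. Without WT TEB 6 weeks replicate 1 these shares were 38.3% and 7.03%, and 67.2% of 244 and 30.1% of 166. At a limit of 100 the shares were 13.8% and 0.968%, and 36.1% and 4.31%, against 5.64% of all genes.

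Of the 15 largest decreases, 9 were higher on both luminal than on both basal arrays (60.0%, against 38.8% of all genes tested), 3 (Serpinb11, Nrg1 and Vcan) were higher on both basal arrays, and in 3 (Cdcp3, Mfsd2a and Rgs2) the layers overlapped. With 2 arrays of each layer this was not tested. Fgb was at 2948 to 5426 in luminal and 58.5 to 82.8 in basal cells, and Itih2 at 1366 to 1883 and 20.1 to 32.1. Nrg1 was at 1358 to 3952 in basal and 31.4 to 34.8 in luminal cells, and Vcan at 1144 to 2944 and 19.8 to 26.5. The duplicate luminal arrays differed widely for some genes, such as Rgs2 (705 to 4082).

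**Figure D4:**
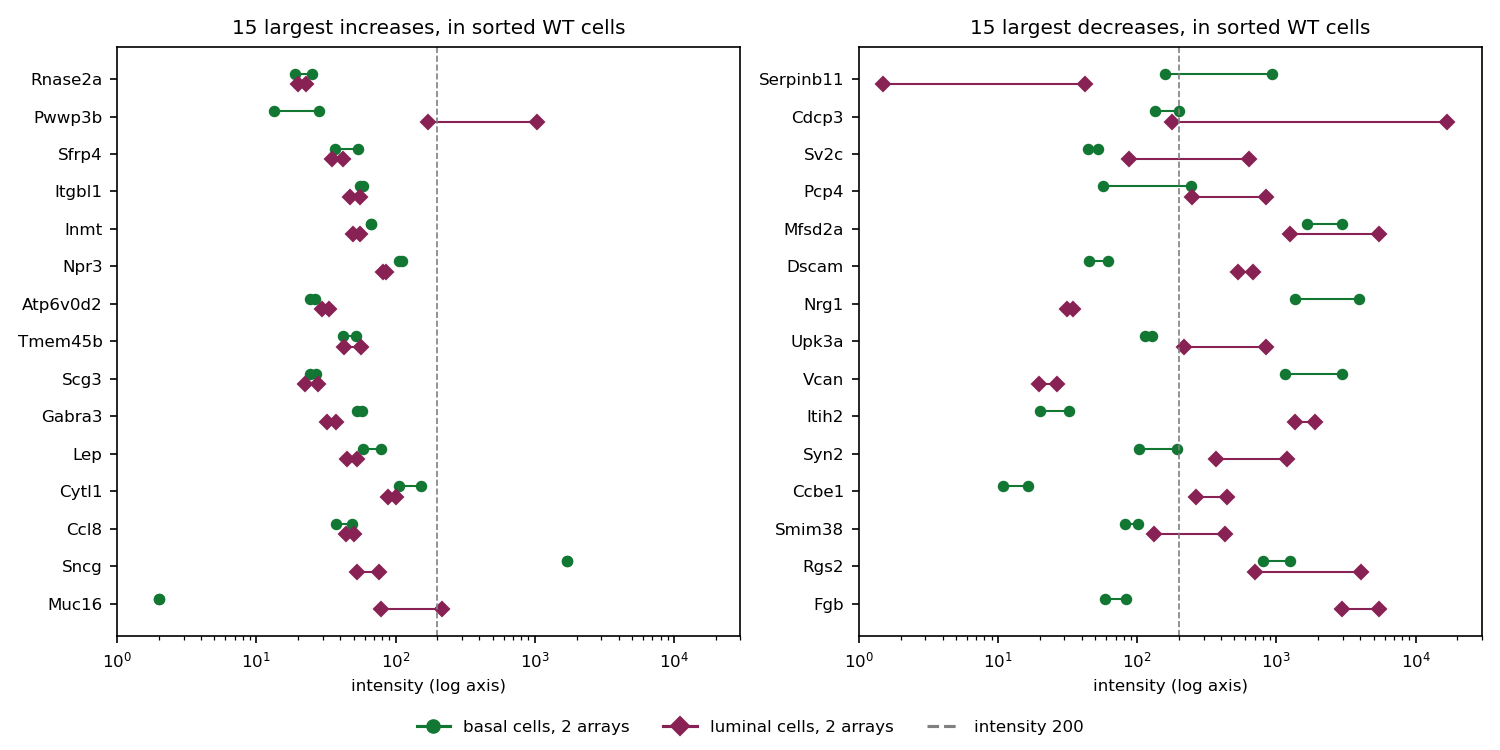
Intensity (x axis, log scale) of the 15 largest increases (left) and 15 largest decreases (right) on arrays of sorted WT basal cells (circles) and luminal cells (diamonds), 2 arrays each joined by a line; the dashed line is an intensity of 200. Of the increases 12 lie left of the line on all 4 arrays, and of the decreases none does.

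Within the basal and pan-luminal lists most genes did not pass. The basal genes that did were lower, and the pan-luminal ones went both ways. Of 17 basal and myoepithelial genes 2 were lower (11.8%, near the 9.28% of all genes) and none higher: Tagln, an actin-binding protein of contractile cells (-0.45), and the laminin gene Lama3 (-0.26). Krt17 (-0.45, adjusted p = 0.0813) and Itga6 (-0.30, adjusted p = 0.0929) did not pass. Of 14 pan-luminal genes 3 were lower and 1 higher (28.6% called, against 20.1% of all genes). Cldn7, a claudin of epithelial junctions, had 6-week values of 753, 1135 and 1236 and 8-week values of 658 and 619 in TEBs and 751 and 743 in ducts (-0.61 ± 0.10, adjusted p = 0.00212), and the mucin gene Muc1 rose from 426, 844 and 1035 to 1219 and 1270 in TEBs and 1513 and 1475 in ducts (0.77 ± 0.21, adjusted p = 0.0246). Esrp1, a splicing factor of epithelia, and Ehf, an epithelial transcription factor, fell by 0.26 and 0.25.

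Of 17 genes of hormone-sensing luminal cells and hormone response, 5 were higher and 4 lower (2 and 1 without WT Duct 6 weeks replicate 1, and 2 lower without WT Duct 8 weeks replicate 1 or without either 8-week TEB array). Cited1, a coregulator of estrogen receptor in luminal cells, fell from 6-week values of 2324, 3091 and 3432 to 1360.4 and 1526 in TEBs and 1587 and 1325 in ducts (-1.05 ± 0.12, adjusted p = 0.00024). Greb1, an estrogen target, fell by 1.63 ± 0.47 (adjusted p = 0.0323 by limma), with ages that overlapped. Its mean log2 intensities at 6 and 8 weeks, 7.10 and 5.46, were both under the expression limit. Pgr, the progesterone receptor, went from 2561, 2769 and 3183 to 1956 and 2303 in TEBs and 2314 and 2460 in ducts (-0.33 ± 0.082, adjusted p = 0.018). Esr1, the estrogen receptor, did not pass (-0.23 ± 0.075, adjusted p = 0.054), although its ages, 2122, 2321 and 2582 at 6 weeks and 1896 and 2077 in TEBs and 1959 and 1989 in ducts at 8 weeks, did not overlap. Without WT TEB 6 weeks replicate 1 its adjusted p was 0.0378. Growth factors through which the stroma and epithelium answer hormones did not all move. Igf1 went from 1104, 1231 and 1442 to 3077 and 2308 in TEBs and 2568 and 3041 in ducts (1.12 ± 0.11, adjusted p = 0.000135). The progesterone target Tnfsf11 rose by 0.44 and Fgf10 by 0.99, whereas Wnt4 did not pass (-0.0095, adjusted p = 0.958 by limma). In sorted cells Igf1 was at 97.9 to 144 (basal) and 129 to 132 (luminal), whereas Cited1 was at 5328 to 5737 in luminal cells.

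Milk and alveolar genes, 19 in all, included 4 that were higher and 3 lower (1 higher without WT Duct 6 weeks replicate 1). With all arrays 36.8% of them were called, against 20.1% of all genes. The milk protein gene Csn3 rose from 4035, 4601 and 4792 to 5976 and 5072 in TEBs and 7108 and 7825 in ducts (0.51 ± 0.092, adjusted p = 0.0038), and Xdh, an enzyme needed for milk fat secretion, from 1132, 1229.8 and 1361 to 1749.5 and 1816 in TEBs and 1843 and 1764 in ducts (0.53 ± 0.061, adjusted p = 0.000293). Stat5a, which relays prolactin, fell from 2228, 2345 and 3261 to 1516 and 1558 in TEBs and 1481 and 1626 in ducts (-0.70 ± 0.11, adjusted p = 0.00131), and Socs2, a target and inhibitor of the same pathway, fell by 0.98. Hence the members that moved did not go one way.

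The list of mucosal defence and secretion had 6 higher and 1 lower of 14 genes. Chil1, a secreted chitinase-like protein, rose from 1008, 1515 and 2996 to 5753 and 4607 in TEBs and 4696 and 4786 in ducts (1.64 ± 0.25, adjusted p = 0.00143), and in sorted cells it was highest in the basal arrays (8995 to 11183). Lyz1 rose by 1.69, with Lyz2, which is also on the macrophage list. Both lysozymes were under 200 on all 4 sorted arrays. Ltf, the iron-binding milk protein lactoferrin, fell from 1134, 1943 and 3626 to 299 and 347 in TEBs and 1003 and 823 in ducts (-1.84 ± 0.12, adjusted p = 9.06e-06). It was at lower intensities in the 8-week TEBs than in the 8-week ducts.

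Among signaling genes, the Wnt list had 9 higher and 1 lower of 32 (median 0.46), and 12 and 2 without WT TEB 6 weeks replicate 1, where the median was 0.26. With all arrays 31.2% of the list was called, against 20.1% of all genes. Without WT Duct 6 weeks replicate 1, 5 were higher. The receptors Fzd4 and Fzd1 rose by 0.58 and 0.60. Nkd1 and Nkd2, feedback inhibitors of the pathway, rose as well: Nkd1 had 6-week values of 208, 289 and 308 and 8-week values of 510 and 509 in TEBs and 473 and 519 in ducts (0.91 ± 0.13, adjusted p = 0.0012), and Nkd2 rose by 0.73. Axin2, a feedback target, rose by 0.49, and the secreted inhibitors divided, Sfrp1 (0.63), Sfrp2 (0.84) and Sfrp4 (3.55) higher and Wif1 lower (-0.98). Lgr5, a receptor for R-spondins that marks cells of some epithelia, did not pass: its 6-week values were 208, 548 and 1045 and its 8-week values 488 and 457 in TEBs and 917 and 948 in ducts (0.47 ± 0.25, adjusted p = 0.207), lower in TEBs than in ducts at 8 weeks.

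In the FGF and ErbB list 3 of 22 genes were higher and 5 lower (5 higher without WT TEB 6 weeks replicate 1, 3 lower without WT Duct 6 weeks replicate 1). With all arrays 36.4% of the list was called, against 20.1% of all genes. The ligands Fgf10 and Fgf2 rose, Fgf10 from 268, 279 and 373 to 589.6 and 652 in TEBs and 555 and 566 in ducts (0.99 ± 0.10, adjusted p = 0.000138) and Fgf2 by 0.99, and their receptor Fgfr2 rose from 4103, 4441 and 4841 to 5265 and 5132 in TEBs and 5446 and 5719 in ducts (0.27 ± 0.054, adjusted p = 0.0064). The pathway's transcriptional targets Etv5 and Etv4 fell. Etv5 had 6-week values of 472, 535 and 655 and 8-week values of 232 and 249 in TEBs and 206 and 179 in ducts (-1.34 ± 0.15, adjusted p = 0.00023), and Etv4 fell by 1.13. Of the ErbB ligands, Nrg1 fell from 152, 224 and 437 to 41 and 37.7 in TEBs and 44 and 42.6 in ducts (-2.57 ± 0.33, adjusted p = 0.000544) and Btc by 1.09. The receptor Erbb2 was at 1339.8, 1519 and 1672 at 6 weeks and 1303 and 1539 in TEBs and 1540.5 and 1657 in ducts at 8 weeks (-0.0068 ± 0.08, adjusted p = 0.963), and Erbb3 differed by -0.069 ± 0.056 (adjusted p = 0.415). The other FGF ligands of the list, Fgf1 and Fgf7 (adjusted p = 0.070 and 0.125), and the targets Dusp6, Spry1, Spry2 and Spry4 (adjusted p from 0.085 to 0.752) did not pass, and without WT TEB 6 weeks replicate 1 Fgf1 and Fgf7 rose and Dusp6 fell (adjusted p = 0.0345, 0.00445 and 0.0213 by limma). In sorted cells Fgf10 was under 200 on all 4 arrays and Etv5 was at 933 to 1956 in basal cells.

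Of 31 genes of TGF-beta, BMP, Notch and Hedgehog signaling, 6 were higher and 4 lower (32.3% called, against 20.1% of all genes). Bmp4, a secreted BMP, rose from 171, 199 and 269.5 to 639 and 564 in TEBs and 639 and 816 in ducts (1.68 ± 0.14, adjusted p = 5.19e-05), and Bmp7 fell by 0.59 with ages that overlapped. Tgfb3 rose by 0.53. The Notch target Hes1 fell by 0.39, while Notch1 (0.45) and the vascular target Hey2 (1.27) rose. Without WT Duct 6 weeks replicate 1, 2 were higher and none lower, and without WT Duct 8 weeks replicate 2, 3 were higher.

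Of 15 metalloproteinases and inhibitors, 7 were higher and 1 lower. Mmp3, stromelysin, had 6-week values of 229, 293 and 405 and 8-week values of 1491 and 1123 in TEBs and 1182 and 1219 in ducts (2.08 ± 0.15, adjusted p = 2.09e-05), a 4.24-fold rise. The gelatinase Mmp2 and the inhibitor Timp2 rose by 0.72 and 0.63. Adamts18 fell from 407, 555 and 614 to 238 and 247 in TEBs and 237 and 239 in ducts (-1.11 ± 0.12, adjusted p = 0.000246), and in sorted cells it was at 1219 to 1942 in basal and 15.9 to 24.6 in luminal cells, where Mmp3 was under 200 in both.

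Imprinted genes with roles in growth were higher in 7 and lower in 1 of 13 (median 0.69). Nnat, neuronatin, rose from 1002, 1209 and 1316 to 3411 and 2764 in TEBs and 2741 and 3013 in ducts (1.31 ± 0.083, adjusted p = 9.46e-06), Sgce from 548, 590.2 and 697 to 1523 and 1043 in TEBs and 1300 and 1198 in ducts (1.05 ± 0.11, adjusted p = 0.000232), and Plagl1 by 0.69. Mest and Igf2 rose by 2.23 and 1.29, and Peg3 fell by 0.31. Dcn is on both this list and that of matrix genes.

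The Clim cofactors, which bridge LIM-domain transcription factors, were named whatever their values because the transgene of the DN-Clim mice acts on them. Ldb1 (Clim2) did not pass: its 6-week values were 2811, 3543 and 4248 and its 8-week values 3548 and 3292 in TEBs and 3678 and 4268 in ducts (0.055 ± 0.11, adjusted p = 0.747). Ldb2 (Clim1) rose from 298, 367 and 506 to 858 and 882 in TEBs and 788 and 769.5 in ducts (1.12 ± 0.15, adjusted p = 0.000647). Its LIM-only partner Lmo2 rose from 271, 308 and 388 to 799 and 603 in TEBs and 649 and 663 in ducts (1.09 ± 0.13, adjusted p = 0.00029), and Lmo4, the partner known in mammary epithelium, did not pass (-0.071 ± 0.07, adjusted p = 0.497). In sorted cells Ldb2 and Lmo2 were under 200 on all 4 arrays. These 2 genes were the ones to pass of 9 on the list (22.2%, near the 20.1% of all genes). The list also held Rlim (-0.18, adjusted p = 0.182) and Ssbp2 (0.13, adjusted p = 0.296).

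Immediate-early and heat shock genes, which respond to growth signals and to handling of tissue, were lower in 8 and higher in 1 of 24 (3 lower without WT Duct 6 weeks replicate 1). Jun fell from 1665, 2100.5 and 2227 to 1127 and 1075 in TEBs and 1064 and 991 in ducts (-0.90 ± 0.10, adjusted p = 0.000192), Egr2 by 0.82, and the chaperone gene Hsph1 by 0.66. Klf4 was the one that rose (0.42). Of 13 interferon response genes 2 fell, Stat2 (-0.45) and Irf7 (-0.95, adjusted p = 0.0498), and 5 and 4 were lower without WT Duct and WT TEB 6 weeks replicate 3. With all arrays 15.4% of this list was called, against 20.1% of all genes. Of 28 genes of oxidative phosphorylation 0 passed (limma), with a median of 0.020, with 1 past it without WT TEB 6 weeks replicate 1 and 4 higher without WT TEB 8 weeks replicate 2. Atp5c1 (0.28, adjusted p = 0.0985) and Cs, citrate synthase (0.16, adjusted p = 0.143), were among those that did not.

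Taken by structure, 940 genes (7.03%) passed in TEBs alone (598 or 4.48% higher and 342 or 2.56% lower) and 1118 (8.37%) in ducts alone (635 or 4.75% higher and 483 or 3.61% lower). Without single arrays these counts ran from 229 (without WT TEB 8 weeks replicate 2) to 1485 (without WT TEB 6 weeks replicate 3) in TEBs and from 186 (without WT Duct 8 weeks replicate 2) to 912 in ducts. In no gene did the age difference differ between TEBs and ducts at an adjusted p of 0.05 by limma, and 340 genes did at an unadjusted p of 0.05. Without WT TEB 6 weeks replicate 1 the count was again 0, with 908 at an unadjusted p of 0.05. All 15 of the largest decreases passed in TEBs and in ducts. Of the 15 largest increases 10 passed in TEBs and 9 in ducts. Both sets were chosen as the largest differences on these same arrays, so these counts are no separate support for either structure. Of the 39 cell cycle genes 1 was lower in TEBs (median -0.68), near the 2.56% of all genes lower there. In ducts 14 were lower (median -1.41), against 3.61% of all genes. The difference between TEBs and ducts was not past the test for any of them. For the endothelial list the counts were 13 of 17 in TEBs (median 1.06) and 10 in ducts (median 0.91), and for the macrophage list 6 of 14 in each (0.79 and 0.63). All of these were increases, to be read against the 4.48% and 4.75% of all genes higher in TEBs and ducts.

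In the K14-DN-Clim littermates, 1168 genes (8.74%) passed between 6 and 8 weeks, 600 (4.49%) higher and 568 (4.25%) lower. Of the 2682 WT genes, 2242 had the same sign there, 615 passed there in the same direction and 18 in the opposite one (2738, 626 and 18 of the 3324 genes called without WT TEB 6 weeks replicate 1). The age difference itself differed between genotypes in 190 genes (1.42%), with the WT difference above that of DN-Clim in 147 (1.1%) and below it in 43 (0.322%), and without WT TEB 6 weeks replicate 1 in 205 genes (1.53%). Of the 190, 156 were called in WT. The counts of list members past the test were smaller in DN-Clim for some lists and larger for others. The WT counts came from the fit of the WT arrays alone, and the DN-Clim counts from a joint fit of both genotypes (20 arrays). Model and power therefore differ between them, and only the interaction test compares the genotypes. In DN-Clim, 7 of 39 cell cycle genes were lower (median -1.24), 4 of 29 ribosome biogenesis genes were lower (-0.19), 1 of 14 macrophage genes was higher (-0.013), 1 of 19 fibroblast genes was higher (-0.019) and 11 of 17 endothelial genes were higher (0.64). Counts close to those of WT were found for the adipocyte list, with 13 of 15 genes higher (0.73) and 1 lower, and for lipid synthesis, with 11 of 23 higher and 1 lower (0.33). The adipocyte gene that was lower in DN-Clim was Ucp1, the uncoupling protein of brown fat (-2.28). In WT it was called higher (1.54, from a mean log2 intensity of 6.85 at 6 weeks). The basal and myoepithelial list had more calls in DN-Clim, with 9 of 17 genes lower (median -0.54) against 2 in WT (-0.061), and none higher in either. Among the 9 were Actg2 (-1.28), a smooth muscle actin gene, and Trp63 (-0.87), the transcription factor of basal cells. Mylk and Trp63 differed between genotypes (WT minus DN-Clim differences 0.63 and 0.72, adjusted p = 0.0180 and 0.0277 by limma). None of the cell cycle, ribosome biogenesis or fibroblast genes, 1 macrophage gene, 1 endothelial gene and 2 adipocyte genes differed between genotypes by the test.

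**Figure D5:**
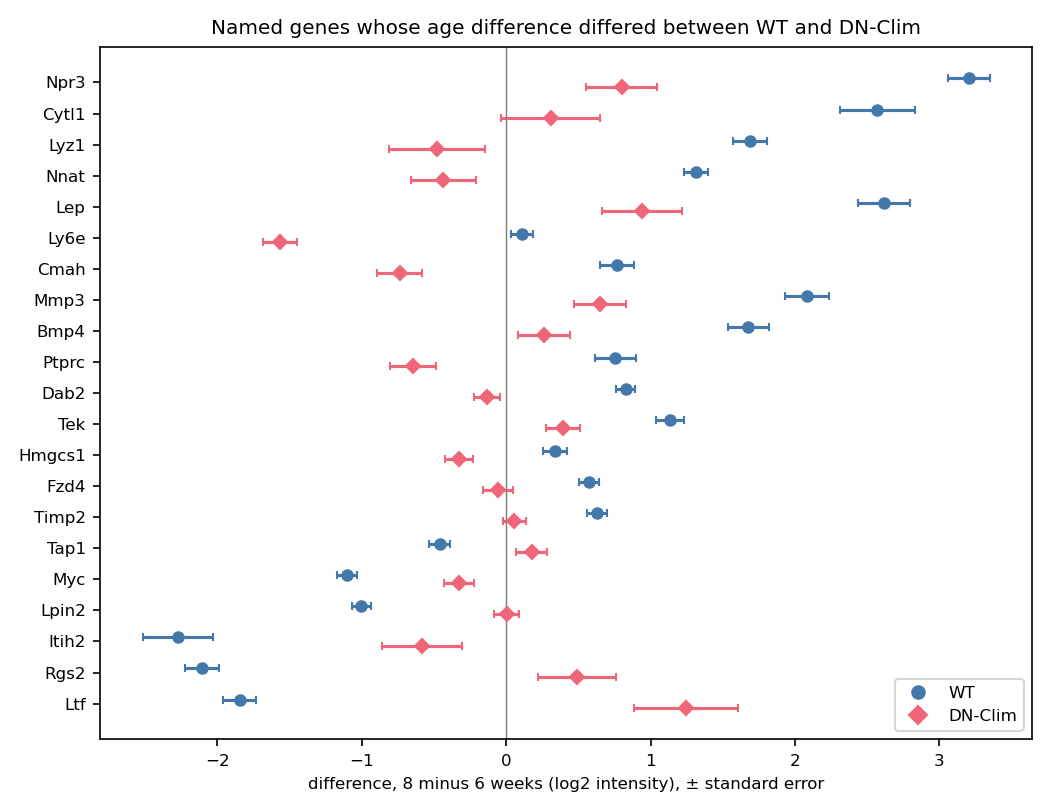
Difference between 8 and 6 weeks (x axis, log2 intensity, with standard errors) in WT (circles) and K14-DN-Clim (diamonds) for the 21 named genes whose age difference differed between genotypes at an adjusted p of 0.05. In Lyz1, Nnat, Cmah, Ptprc, Dab2, Hmgcs1 and Fzd4 the WT value was above 0 and the DN-Clim value below it, and in Ltf, Rgs2, Tap1 and Lpin2 the reverse. Nnat, Dab2, Tap1 and Lpin2 were among those whose DN-Clim value did not pass. WT values and errors are from the fit of the WT arrays alone, those of DN-Clim from the joint fit of 20 arrays.

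Ly6e, a small surface protein of the Ly6 family, had the lowest adjusted p for a difference between genotypes. It did not pass in WT, with 6-week values of 4528, 5376 and 5621 and 8-week values of 5978 and 5062 in TEBs and 5698 and 6029 in ducts (0.11 ± 0.078, adjusted p = 0.352), and in DN-Clim it fell (-1.56 ± 0.12), a difference between genotypes of 1.67 ± 0.17 (adjusted p = 0.000143). Lpin2, a phosphatidate phosphatase of lipid synthesis, fell in WT from 1359.8, 1440.2 and 1568 to 694 and 712 in TEBs and 722 and 773 in ducts (-1.003 ± 0.066, adjusted p = 1.26e-05) and was 0.0033 ± 0.089 in DN-Clim (difference -1.01, adjusted p = 0.00198). Dab2, an endocytic adaptor, rose in WT from 853, 949.5 and 985 to 1604 and 1808 in TEBs and 1599 and 1595 in ducts (0.83 ± 0.068, adjusted p = 4.01e-05) and was -0.13 ± 0.092 in DN-Clim (difference 0.96, adjusted p = 0.00356). In all 3 the age difference passed in 1 genotype and did not pass in the other.

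Npr3 rose more in WT than in DN-Clim, where it did not pass (0.80 ± 0.25, adjusted p = 0.0516), a difference of 2.40 ± 0.35 (adjusted p = 0.00561). Cmah, which makes a form of sialic acid, rose in WT (0.77) and fell in DN-Clim (-0.74), a difference of 1.50 (adjusted p = 0.00561), as did Ptprc (0.76 and -0.64, difference 1.40, adjusted p = 0.0064). Ltf fell in WT and rose in DN-Clim (-1.84 and 1.24, difference -3.09, adjusted p = 0.00779). Rgs2 fell in WT and was 0.49 ± 0.27 in DN-Clim (difference -2.60, adjusted p = 0.00561). Myc fell in WT (-1.10) and did not pass in DN-Clim (-0.32), a difference of -0.78 (adjusted p = 0.0161). Serpinb11, Nrg1 and Cited1 fell in both genotypes (-4.27, -3.33 and -1.10 in DN-Clim), with differences between genotypes of 0.046 ± 0.80, 0.76 ± 0.48 and 0.043 ± 0.30.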

How the data were processed

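Laser capture microdissected TEBs and ducts and, in separate arrays, sorted basal and luminal cells were hybridized to Affymetrix Mouse Gene 1.0 ST arrays. The values deposited by the authors were intensities on a linear scale, summarized per probe set with PLIER. The version of PLIER and its background and normalization settings were not given in the sources used here, and any scaling between arrays was kept as deposited. Because arrays carry no read counts, their number limits the precision.

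From the 35557 probe sets, 21789 had 1 gene symbol, 1621 had several and 12147 had none in the platform annotation, and only those with 1 symbol were named (21698 symbols were found in RefSeq). Every value below 1 was raised to 1 before taking log2, a probe set was kept if it reached 200 on any of the 42 arrays of microdissected tissue, and the probe set with the highest mean stood for each gene, which left 13362 genes. Among called genes with more than 1 probe set (167), 2 had another probe set called in the opposite direction.

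The age difference was fitted with limma 3.58.1 (R 4.3.3; moderated statistics with an intensity trend) on age and structure, with the mouse as a random block (consensus correlation 0.091), and p-values were adjusted by Benjamini-Hochberg over all 13362 genes. All tests were 2-sided, and a call needed an adjusted p of 0.05. The differences between TEB and duct and between WT and K14-DN-Clim were tested as interaction terms. The age difference in DN-Clim was taken from the joint fit of WT and DN-Clim, 20 arrays (consensus correlation 0.248). The script was tested on simulated data. Replicates are labelled biological. Taking TEB and duct of the same age and number as 1 mouse was an assumption: the correlations of their deviations were -0.083, 0.333 and 0.175 at 6 weeks and 0.134 at 8 weeks, where 2 arrays of a structure give 1 value. Numbers did not pair mice of different ages (-0.059 to 0.034), so no replicate block was used in the reported fit.

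Named were the 15 largest increases and 15 largest decreases past the test with and without WT TEB 6 weeks replicate 1 with no overlap between ages, up to 4 members of each list by adjusted p, a fixed set of 13 genes of the study's subject, and up to 5 genes for each test of a difference. Further list members are given by their fitted difference only. These members, rules and the 30 gene lists (507 genes measured of 631) were chosen with earlier results of these data known. Alternatives covered blocks, averaging per mouse, normalization, floor, filter, probe set rule, array weights, the samples fitted, the conflicting label and leaving out each array or mouse. Promoter sequences were RefSeq's. Arrays of 4 and 10 weeks and sorted DN-Clim cells entered no test.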

Additional observations from a re-analysis of the deposited data

Results flagged for a closer look

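Among the 6 arrays of 6 weeks, WT TEB replicate 1 stood apart from the rest in its share of probe sets under an intensity of 1 (9.53%) and in its median correlation with the other laser capture arrays (0.774). On the same array the list medians, relative to the mean of the 10 arrays, lay apart for T, B and plasma cell genes (-1.53), Wnt signaling (-0.45), FGF and ErbB signaling (-0.16), TGF-beta, BMP, Notch and Hedgehog (-0.27) and the Clims and partners (-0.36). The ribosome biogenesis list stood apart on WT TEB 8 weeks replicate 2 (-0.41). Over the 157 named genes, an array lay far from the others of its age for 13 genes on WT TEB 6 weeks replicate 1, 3 on WT TEB 6 weeks replicate 3, 1 on WT Duct 6 weeks replicate 3, 6 on WT TEB 8 weeks replicate 2, 2 on WT TEB 8 weeks replicate 1 and 2 on WT Duct 8 weeks replicate 2. These are 27 of 314 gene and age combinations, and chance flags about 1 in 20.

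The age difference, 8 minus 6 weeks, differed between WT and K14-DN-Clim by the interaction test for 21 named genes, given as the WT minus the DN-Clim difference on the log2 scale. It was positive for Npr3 (2.40), Cytl1 (2.26), Lyz1 (2.17), Nnat (1.75), Lep (1.67), Ly6e (1.67), Cmah (1.50), Mmp3 (1.43), Bmp4 (1.42), Ptprc (1.40), Dab2 (0.96), Tek (0.74), Hmgcs1 (0.66), Fzd4 (0.63) and Timp2 (0.57). It was negative for Ltf (-3.09), Rgs2 (-2.60), Itih2 (-1.69), Lpin2 (-1.01), Myc (-0.78) and Tap1 (-0.64). In Lyz1, Nnat, Cmah, Ptprc, Dab2, Hmgcs1, Fzd4, Ltf, Rgs2, Tap1 and Lpin2 the fitted values of the genotypes had opposite signs. An opposite sign was not always a change in DN-Clim: Nnat, Dab2, Tap1 and Lpin2 were among those that did not pass there. The arrays of each genotype and age were few (4 or 6), and their part in these differences was not tested.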

How the results depend on the processing

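The direction of the age difference was kept by all 127 named genes past the test under all alternatives, and 83 of them stayed past the threshold under every one. The number of genes past it rested on few mice: 1529 with TEB and duct averaged per mouse, and 734 to 3726 with 1 mouse left out (734 and 1008 without the mice of 8 weeks). It was 791 to 3366 with 1 array left out (791, 1738 and 1416 without WT Duct 6 weeks replicate 1 and WT Duct 8 weeks replicates 1 and 2). With array quality weights, a setting that also left out the mouse block, it was 6717. With the replicate block in place of the mouse block it was 3555, without a block 3016, after quantile normalization 3239 (46.8% higher, against 53.8%), and after quantile normalization without WT TEB 6 weeks replicate 1, a setting chosen after seeing the data, 3494. With WT Duct 8 weeks replicate 2 taken as a TEB it was 2315. In TEBs alone the count was 229 to 1485 and in ducts alone 186 to 912 with 1 array left out, and the count for WT against K14-DN-Clim was 479 without the mouse block. Of the genes that did not pass, Ldb1 changed sign after quantile normalization (-0.053, and -0.10 with the array also left out) and ranged from -0.0235 to 0.15 with 1 array or mouse left out, Krt8 (-0.056 and -0.074) and Ly6e (-0.087 and -0.10) changed sign under the same quantile settings, and Erbb2 was 0.00676 with the duct array taken as a TEB and ranged from -0.093 to 0.080 with 1 array or mouse left out. Where a sign or a call changed, the cause was not tested. Low signal limits genes under 200.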
